A study of Mus musculus with 25 samples.

Results

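The 10 antiviral effector genes described here belong to the interferon response and were followed across all groups of the series: the IFIT genes Ifit1, Ifit2 and Ifit3, the oligoadenylate synthetase genes Oas1a and Oas2 with their relatives Oasl1 and Oasl2, the MX GTPase genes Mx1 and Mx2, and Rsad2, which encodes viperin. They were chosen as families of the interferon response, with earlier results of these data known, and matched by gene symbol. All 10 were found among the 18193 genes that the arrays name, on 12 of 34945 probe sets. Rsad2 had 3 probe sets and the other 9 genes had 1 each. All levels are log2 signals of 25 Affymetrix mouse expression arrays, 1 sample per array, so a difference of 1 is a factor of 2 in signal. A level says nothing of one gene against another, since each probe set binds its target differently.

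Type I and type III interferons bind cell surface receptors and, through JAK kinases, STAT2 and its DNA-binding partner IRF9, switch on genes that carry an interferon-stimulated response element. The proteins of these genes block viruses at separate steps: IFIT proteins bind viral RNA and hinder its translation, OAS enzymes sense double-stranded RNA and make a messenger that activates the nuclease RNase L, MX GTPases trap viral nucleoproteins, and viperin makes a chain-terminating nucleotide. OASL proteins are related to OAS enzymes and act on RNA sensing and on the regulator IRF7. Most laboratory strains, C57BL/6 included, carry a deletion in Mx1 that leaves no working protein, so Mx1 is read here as a transcript.

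Induced macrophages (iMac) were made from the C10 pre-B cell line, which received lentivirus with scramble, Ebf1 or Pou2af1 shRNA before conversion and was then selected with puromycin for 2 days (n = 2 arrays per group). Conversion used 100 nM β-estradiol with IL-3 and CSF-1, as the labels of the scramble arrays describe it; C10 is 1 cell line, and all 3 groups carry an shRNA virus. Induced hepatocytes (iHep) were C57BL/6J E13.5 embryonic fibroblasts carrying Foxa1 and Hnf4a retroviruses, in 3 lines that the labels call independent. They stood beside C57BL/6J fetal liver (E14.5), C57BL/6J adult liver, and colon crypts of 8-week-old Rag2gammac-/- mice, which lack lymphocytes (n = 2 each). For adult liver the labels conflict between 8-week whole liver and 10-week hepatocytes freed with collagenase. Engrafted iHeps were sorted by GFP from colons of Rag2gammac-/- mice that had been damaged with DSS (dextran sulfate sodium), 12 days after transplantation (n = 2). Further iHeps carried lentivirus with scramble or Cdx2 shRNA and were selected with puromycin for 2 days (n = 4 each). Only the iHep lines are labelled as independent; elsewhere replicates may share a culture or animal, and the p-values then cover no more than the spread among these arrays, which may be technical.

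The arrays fell into 2 sets by their RNA control spikes. The RNA spikes dap, lys, phe and thr, which are added to the sample before labelling, averaged 8.12 to 10.25 on the cultured iHep, liver and iHep shRNA arrays and 4.15 to 4.46 on the induced macrophage, engrafted iHep and colon arrays. By these spikes macrophage groups were compared within 1 set, as were iHeps with liver, Cdx2 with scramble shRNA, and engrafted iHeps with colon. On the RNA spikes adult liver was at 9.41 to 10.25, fetal liver at 8.39 to 8.83 and cultured iHeps at 8.12 to 8.40. Hybridisation spikes (bioB, bioC, bioD and cre) averaged 10.42 to 10.72 on cultured iHep arrays. They were at 11.01 to 11.26 in fetal liver and 12.13 to 12.46 in adult liver. The part of these spike differences in the comparisons with liver was not tested. Cultured iHeps were in the other set from colon and from engrafted iHeps, so in those comparisons the spike set and the group cannot be told apart. Marker genes bore out the labels in part. The array means of 6 macrophage markers were 10.02 to 10.99 in induced macrophages, yet 5 pre-B cell markers were still at 8.89 to 10.4 and the macrophage surface marker Adgre1 was below the 40th percentile of its array in the scramble and Ebf1 arrays. The 5 hepatocyte markers averaged 14.4 to 14.6 in adult liver and 6.82 to 10.8 in the iHep lines, whose albumin (Alb) signals were 5.69, 9.90 and 11.59 in lines 1, 2 and 3. The 6 colon epithelium markers averaged at least 12.99 on both colon arrays, 11.6 to 12.2 in engrafted iHeps and 6.70 to 7.19 in cultured iHeps.

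The 10 genes lie on 4 mouse chromosomes (GRCm38.p6, RefSeq). Ifit1, Ifit2 and Ifit3 lie together on chromosome 19, between 34550550 and 34650009. Oasl1 and Oasl2 are neighbours on chromosome 5, between 114896926 and 114937911, with Oas2 (120730333 to 120749886) and Oas1a (120896256 to 120907544) farther along the same chromosome. Mx1 (97447035 to 97462906) and Mx2 (97536081 to 97560901) are on chromosome 16, and Rsad2 is on chromosome 12 (26442743 to 26456452). Close relatives such as Ifit1bl1 and the Oas1 cluster can share sequence with these probe sets, so part of a signal could come from a relative.

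The promoters are shown because the interferon-stimulated response element is the sequence these genes are known to share. RefSeq promoter windows of 250 bases before the start were at hand for 7 of the 10 genes, in 8 windows; Mx1, Mx2 and Oas2 are named only. The core of the element, GAAA, any 2 bases (NN) and GAAA, was searched on both strands, so that it also appears as TTTC, NN and TTTC, and matches are in capitals. It was found in the windows of 4 genes, Ifit1, Ifit3, Oas1a and Rsad2, and not in those of Ifit2, Oasl1 and Oasl2. Over all 32851 promoter windows of this length, 2.977% held a match and 0.1796% held 2 or more. The Ifit1 (chr19:34640639-34640888, plus strand), Oas1a (chr5:120907526-120907775, minus strand) and Rsad2 (chr12:26456453-26456702, minus strand) windows read, 5′ to 3′:
Ifit1: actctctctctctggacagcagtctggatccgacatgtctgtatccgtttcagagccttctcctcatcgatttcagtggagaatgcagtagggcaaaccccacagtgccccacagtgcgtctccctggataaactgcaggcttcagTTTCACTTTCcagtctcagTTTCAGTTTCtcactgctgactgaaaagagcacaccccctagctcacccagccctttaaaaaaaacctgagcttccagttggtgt
Oas1a: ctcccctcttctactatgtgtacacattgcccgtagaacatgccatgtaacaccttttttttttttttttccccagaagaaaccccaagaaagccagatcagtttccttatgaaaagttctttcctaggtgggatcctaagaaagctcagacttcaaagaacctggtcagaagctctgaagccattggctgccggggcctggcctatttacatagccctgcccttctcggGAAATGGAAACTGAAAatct
Rsad2: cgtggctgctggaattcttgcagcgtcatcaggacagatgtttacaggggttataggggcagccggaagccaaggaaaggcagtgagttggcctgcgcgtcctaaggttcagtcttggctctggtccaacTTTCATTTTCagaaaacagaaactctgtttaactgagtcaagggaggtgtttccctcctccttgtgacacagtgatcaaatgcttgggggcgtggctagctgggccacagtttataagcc
Ifit1 held 2 separate matches, TTTCACTTTC from 104 to 95 and TTTCAGTTTC from 85 to 76 bases before the start. Ifit3 held the same 2 strings, TTTCACTTTC from 156 to 147 and TTTCAGTTTC from 122 to 113 bases before its start, in the window chr19:34583279-34583528, which lies inside the annotated span of the gene. Oas1a held 2 matches that overlap, GAAATGGAAA and GAAACTGAAA, in the last 20 bases before the start, and Rsad2 held 1. The Oas1a window also runs into the annotated span of its gene, which ends at 120907544, at the end that holds the matches. Windows of Ifit2, Oasl1 and Oasl2 likewise run into or lie inside the spans of their genes. A match is a string of letters and no measured site, and windows without one say nothing about the factors.

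**Figure D1:**
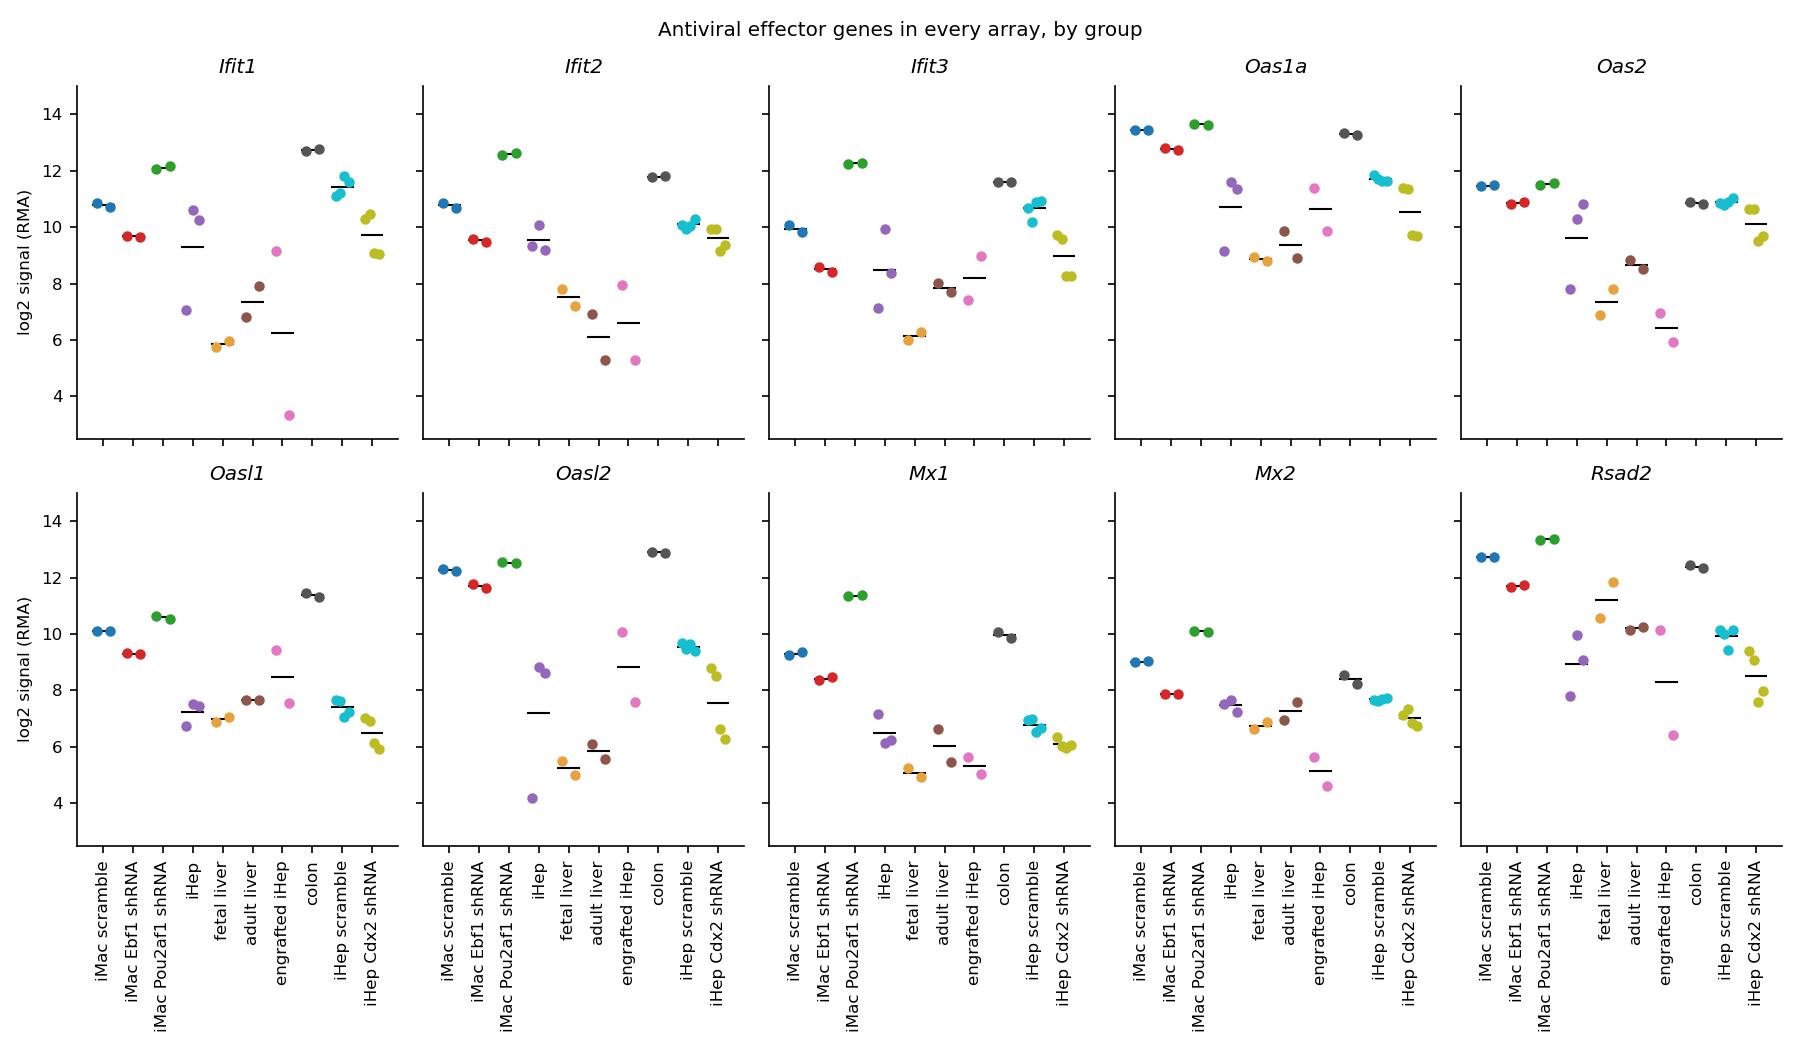
Log2 signal (RMA) of the 10 genes on each of the 25 arrays, by group; points are arrays and bars are group means, 1 probe set per gene. Induced macrophages labelled Pou2af1 shRNA rank first in 7 genes and colon in 3, while liver and engrafted iHeps are mostly low and cultured and engrafted iHep arrays are spread widely.

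Across the 10 groups the effectors were highest in induced macrophages and colon and lowest in liver and engrafted iHeps. Averaged over the 10 genes, the macrophage arrays labelled Pou2af1 shRNA were at 12.00 and 12.02. The other arrays were at 11.58 and 11.49 in colon, 11.01 and 10.96 in scramble macrophages and 10.05 and 10.02 in Ebf1 macrophages. The iHeps with scramble shRNA ranged from 9.55 to 9.67 and those with Cdx2 shRNA from 7.89 to 9.07. The iHep lines stood at 7.39, 9.26 and 8.86, engrafted iHeps at 8.38 and 6.46, adult liver at 7.79 and 7.49 and fetal liver at 7.02 and 7.18. Macrophages, colon and engrafted iHeps had the low RNA spike signals, and the part of the spike set in these levels was not tested.

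By gene, the macrophages labelled Pou2af1 shRNA ranked first in 7 of the 10 and colon in the other 3, Ifit1, Oasl1 and Oasl2. Colon was among the first 3 groups in 9 genes, and in Oas2 it was at 10.85 ± 0.07 (SD, n = 2), overlapping iHeps with scramble shRNA (10.88 ± 0.11, n = 4) and Ebf1 macrophages (10.85 ± 0.04, n = 2). Fetal liver was among the last 3 groups in 9 genes, and adult liver and engrafted iHeps in 7 each. Rsad2 stood apart from this order: fetal liver ranked next after macrophages and colon, with 10.55 and 11.85 on its 2 arrays, above adult liver (10.15 and 10.25) and above every cultured iHep array. In 7 genes, the 3 IFIT genes, Oas1a, Oasl2, Mx1 and Mx2, each of the first 4 groups lay apart from the next in that order, whereas further down most neighbouring groups overlapped. Groups were ordered by their means before neighbours were compared, and the share of all genes with such gaps was not counted. Groups of 2 arrays part easily: with Ebf1 against scramble shRNA, 35.1% of all genes had lower, non-overlapping arrays.

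The 10 genes followed each other over the groups to different degrees. Pearson correlations over the 10 group means of the 45 gene pairs ran from 0.50 (Ifit3 with Rsad2, and Oas2 with Oasl1) to 0.985 (Oas1a with Oasl2), with a median of 0.81. Rsad2 was the least like the others, at 0.72 against the mean of the other 9 genes, and Mx1 the most, at 0.97. Among 15382 further genes whose group means differed by at least 1, the genes closest to the mean of the 10 were Herc6 (r = 0.97), Oas3 (0.97), Zfp513 (0.96), Dhx58 (0.95), Uqcc1 (0.95) and Tor3a (0.95). Herc6 attaches the ubiquitin-like ISG15 to other proteins, Oas3 is a further oligoadenylate synthetase and Dhx58 encodes the RNA sensor LGP2. These are descriptions over 10 groups that share spike sets and cell origins, with no test.

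The shRNA targets were read first in induced macrophages. Ebf1, which encodes a factor that commits cells to the B lineage, was at 8.31 and 8.38 with scramble shRNA, 7.41 and 7.21 with Ebf1 shRNA and 8.20 and 8.34 on the arrays labelled Pou2af1 shRNA, a fall of 1.04 ± 0.11 (SE) with its own shRNA (limma, adjusted p = 0.0039). Pou2af1, a coactivator in B cells, was at 11.25 and 11.06 with scramble shRNA and 11.34 and 11.26 on the arrays labelled Pou2af1 shRNA (log2 fold change 0.14 ± 0.12, adjusted p = 0.495). With Ebf1 shRNA Pou2af1 was at 12.00 and 11.81, higher than with scramble by 0.75 ± 0.12 (limma, adjusted p = 0.0138). The Ebf1 arrays were also higher in Pou2af1 than those labelled Pou2af1 shRNA, by 0.61 ± 0.12 (adjusted p = 0.021). Against scramble, Pou2af1 was not lower on the arrays labelled Pou2af1 shRNA, which are called so throughout, and any direction drawn from them rests on that label.

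With Ebf1 shRNA all 10 effectors fell against scramble shRNA, and no gene's arrays overlapped between the groups. Ifit1 stood at 10.86 and 10.70 with scramble and at 9.67 and 9.66 with Ebf1 shRNA, and Ifit3 at 10.06 and 9.81 against 8.59 and 8.40. Ifit3 fell by 1.44 ± 0.13 (adjusted p = 0.0018), the largest fall of the 10, Ifit2 by 1.24 ± 0.12 and Ifit1 by 1.11 ± 0.11. The IFIT genes thus lost more than a factor of 2 in signal. The OAS and OASL genes moved less. Oas1a went from 13.43 and 13.42 to 12.80 and 12.73, a fall of 0.66 ± 0.09, and Oas2 from 11.46 and 11.48 to 10.82 and 10.88, a fall of 0.63 ± 0.10. Oasl1 fell by 0.81 ± 0.10 and Oasl2, from 12.29 and 12.22 to 11.78 and 11.63, by 0.55 ± 0.10 (adjusted p = 0.0226). Mx1 fell by 0.89 ± 0.10 and Mx2, from 9.01 and 9.04 to 7.87 and 7.89, by 1.15 ± 0.09 (adjusted p = 0.0013). Rsad2 fell by 1.04 ± 0.09, and the differences on its other probe sets were −1.28 and −1.302.

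Of 12484 genes tested in this comparison, 8.16% were called lower and 35.1% had lower, non-overlapping arrays, against 10 of 10 effectors for both. The median log2 fold change was −0.96 over the 10 genes and −0.04 over all genes. The calls of Oas1a, Oas2 and Oasl2 ended without scramble replicate 1 (adjusted p = 0.055, 0.0618 and 0.108) or scramble replicate 2 (0.0502, 0.0613 and 0.0736), that of Oas2 also without Ebf1 replicate 1 (0.0532) and that of Oasl2 without Ebf1 replicate 2 (0.087). The other 7 genes were called whichever of the 4 arrays was left out. Leaving out 1 of 2 arrays leaves a group with a single array, which is then assumed to vary like the other groups of the model. Fitted with all 25 arrays in 1 model, whose spread is that of every group, 1 of the 10 was called, Mx2.

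The arrays labelled Pou2af1 shRNA lay on the other side of scramble, with 7 of the 10 effectors higher (6.79% of all genes were called higher). They share their scramble arrays with the Ebf1 comparison, so the 2 sets of differences are not independent. Ifit3 rose from 10.06 and 9.81 to 12.23 and 12.28, by 2.31 ± 0.13 (adjusted p = 7.0e-04). Ifit2 reached 12.55 and 12.64, a rise of 1.82 ± 0.12, and Ifit1 12.06 and 12.15, a rise of 1.32 ± 0.11. Among the GTPases, Mx1 rose from 9.25 and 9.36 to 11.34 and 11.39, by 2.06 ± 0.10 (adjusted p = 5.0e-04), and Mx2 from 9.01 and 9.04 to 10.11 and 10.08, by 1.07 ± 0.09.

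The OAS and OASL genes differed little from scramble in the arrays labelled Pou2af1 shRNA. Oas1a was at 13.65 and 13.62 against 13.43 and 13.42, a difference of 0.21 ± 0.09 (adjusted p = 0.198). Oas2 differed by 0.06 ± 0.10 (adjusted p = 0.743) and Oasl2 by 0.27 ± 0.10 (adjusted p = 0.151), and Oasl1 rose by 0.48 ± 0.10 (adjusted p = 0.028). With scramble shRNA Oas1a and Oasl2 were already at 12.2 to 13.4, and the highest value of the arrays was 15.11. Oas2, with the smallest difference, was at 11.46 and 11.48 with scramble shRNA and Oasl1 at 10.11 and 10.12. The part of these levels in the small differences was not tested. Rsad2 rose by 0.62 ± 0.09 on its brightest probe set (adjusted p = 0.0126), and by 1.19 and 1.33 on the other 2, which were dimmer. The calls of Oasl1 and Rsad2 ended when any 1 of the 4 arrays was left out (adjusted p = 0.0999 to 0.146 and 0.0665 to 0.078). With a robust mean-variance trend in the model Oas1a and Oasl2 were called as well, and with all 25 arrays in 1 model 2 genes were, Mx1 and Mx2.

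Set directly against each other, the Ebf1 arrays lay below the arrays labelled Pou2af1 shRNA in all 10 genes, with 9.31% of all genes called lower. This direction follows from the 2 comparisons with scramble shRNA, on opposite sides of which the groups lay, and is no separate result. Ifit3 differed by −3.76 ± 0.13, Ifit2 by −3.06 ± 0.12, Mx1 by −2.95 ± 0.10, Ifit1 by −2.44 ± 0.11, Mx2 by −2.22 ± 0.09 and Rsad2 by −1.66 ± 0.09. Oasl1 differed by −1.29 ± 0.10, Oas1a by −0.87 ± 0.09, Oasl2 by −0.82 ± 0.10 and Oas2 by −0.68 ± 0.10. With any 1 of the 4 arrays left out, all 10 were called, again with the spread taken from the other groups.

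**Figure D2:**
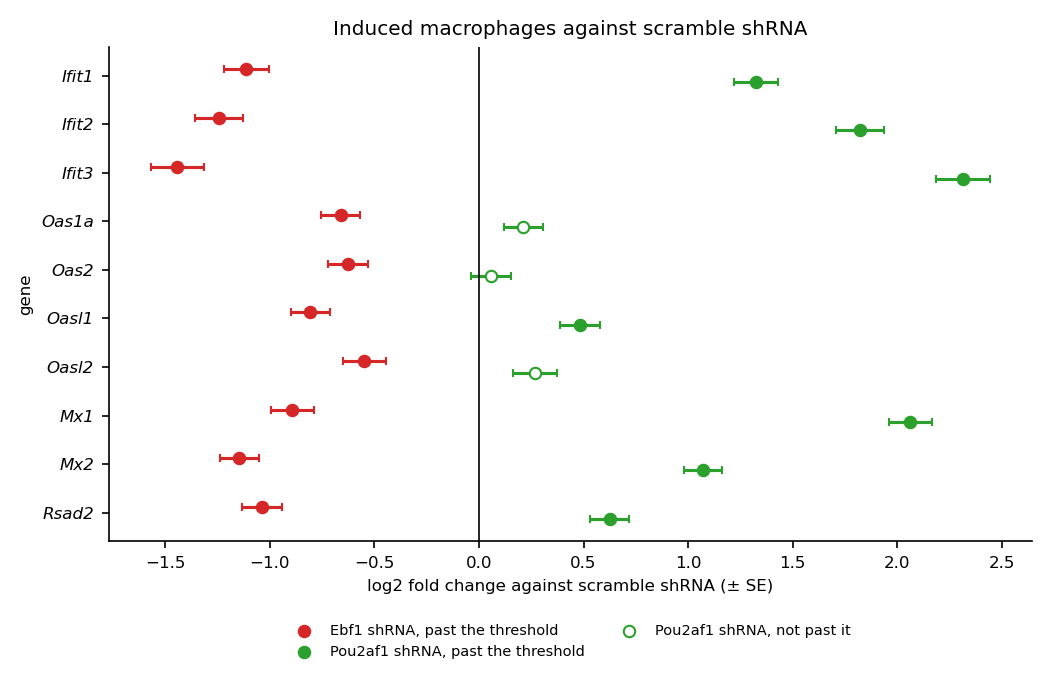
Log2 fold change of each gene in induced macrophages with Ebf1 shRNA and in the arrays labelled Pou2af1 shRNA, against the same scramble arrays (n = 2 arrays per group); bars are limma's SE, and open points did not pass an adjusted p of 0.05. The 10 Ebf1 points lie between −1.44 and −0.55, and Oas1a, Oas2 and Oasl2 are the open points on the Pou2af1 side.

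Genes upstream of the effectors moved the same way in these groups for some of their number. Over all genes, 8.16% were called lower and 6.21% higher with Ebf1 shRNA, and 5.14% and 6.79% on the arrays labelled Pou2af1 shRNA. Of 3 interferon genes tested, Ifnb1, which encodes interferon beta, fell with Ebf1 shRNA (−0.56 ± 0.12, from a mean of 5.79 to 5.22, close to background) and rose in the arrays labelled Pou2af1 shRNA (1.54 ± 0.12, to 7.33), while Ifna1 and Ifnz were not called in either. None of 5 receptor genes was called with Ebf1 shRNA, and Ifngr1 (0.63) and Ifngr2 (0.45), which encode the receptor of interferon gamma, rose on the arrays labelled Pou2af1 shRNA. Stat2 fell by 0.52 ± 0.10 and Irf9 by 0.51 with Ebf1 shRNA. In the arrays labelled Pou2af1 shRNA, Stat2 rose by 0.59 ± 0.10 and Irf9 differed by 0.05 (not called). Irf7, the regulator that amplifies interferon production, fell by 0.62 ± 0.10 with Ebf1 shRNA and rose by 1.38 ± 0.10 on those labelled Pou2af1 shRNA.

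Among 26 other interferon-stimulated genes tested, 15 fell and 1 rose with Ebf1 shRNA (6.21% of all genes were called higher), with a median of −0.48. Cmpk2 (−1.75) and Rnf213 (−1.16) were the lowest, Ifi27 rose by 1.77, and the membrane proteins Ifitm1 (0.12) and Ifitm3 (0.03) were not called. Against scramble, 12 of the 26 rose and 0 fell in the arrays labelled Pou2af1 shRNA, with a median of 0.46, led by Phf11d (2.45) and Tor3a (1.17). Usp18, which restrains the interferon receptor, fell by 1.23 ± 0.10 with Ebf1 shRNA and rose by 0.50 ± 0.10 on the arrays labelled Pou2af1 shRNA. Of 12 nucleic acid sensors and adaptors, 5 fell and 2 rose with Ebf1 shRNA, the largest changes being those of Zbp1 (−1.11), Tlr7 (0.80) and Ifih1 (−0.72). On the arrays labelled Pou2af1 shRNA 6 of these 12 rose and 0 fell, with Tlr3 (1.31), Dhx58 (1.11) and Zbp1 (1.08) first. Among 6 further IFIT and OAS family genes, Ifit1bl1 fell by 1.57 ± 0.10 with Ebf1 shRNA and rose by 2.28 ± 0.10 on those labelled Pou2af1 shRNA. Oas3 differed by 0.02 with Ebf1 shRNA (not called) and rose by 1.21 on the arrays labelled Pou2af1 shRNA. The array means of the 6 macrophage markers were 10.0 to 10.2 with scramble, 10.6 with Ebf1 and 10.93 to 10.99 on the arrays labelled Pou2af1 shRNA, and those of 5 pre-B cell markers 9.43 to 9.57, 8.89 to 9.13 and 10.3 to 10.4; their part in the differences of the effectors was not tested. In such bulk samples, fewer cells of a type and less RNA per cell cannot be told apart.

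In cultured iHeps the effectors differed widely between lines. Over the 10 genes the median distance between the highest and lowest line was 2.30, against 0.39 over all 15262 genes tested in the model. Oasl2 stood at 4.19 in line 1, below the 40th percentile of that array, and at 8.84 and 8.63 in lines 2 and 3. Ifit1 was at 7.05, 10.62 and 10.25, Oas2 at 7.80, 10.28 and 10.80, Ifit3 at 7.15, 9.92 and 8.38, and Oas1a at 9.14, 11.58 and 11.36. Line 1 was the lowest in 7 genes and line 2 the highest in 8, and how many of all genes had this order was not counted. Mx1 went the other way, with 7.15 in line 1 against 6.13 and 6.23, and Mx2 differed little (7.51, 7.68 and 7.25). Line 1 also had the lowest albumin signal, the lowest mean of 6 fibroblast markers (5.34, with 7.69 in line 3, the highest) and Cdx2 at 10.33, against 8.97 and 9.17 in lines 2 and 3; their part in the spread was not tested. The leukocyte markers, at array means of 4.89 to 5.09 in all 3 lines, with Ptprc at 3.36 to 3.50, were near the bottom of the arrays.

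Against adult liver, 1 of the 10 genes was called in iHeps: Ifit2, at 9.35, 10.09 and 9.19 in the lines and 6.90 and 5.29 in adult liver, was higher by 3.44 ± 0.71 (adjusted p = 0.0023). The lower adult array was below the 40th percentile of its array, so the size of this difference is limited by background, and it was 4.25 without adult replicate 1 and 2.64 without adult replicate 2. In this comparison 55.9% of all genes were called, and 37.8% were called higher. The share of calls that were higher was 67.5%, and 52% after centring each array on its median; the median of all genes lay at 0.26. The other 9 effectors, from −1.26 ± 0.96 for Rsad2 to 1.95 ± 1.497 for Ifit1, were not called. Without line 1, 4 genes were called higher: Ifit2, Oas1a (2.09), Oas2 (1.87) and Oasl2 (2.89).

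Against fetal liver, Ifit3 (2.34 ± 0.69, adjusted p = 0.0263), Oas2 (2.27 ± 0.75, adjusted p = 0.0423) and Mx1 (1.43 ± 0.41, adjusted p = 0.0224) were higher in iHeps, and no effector was called lower on the probe set that stood for its gene (13.1% of all genes were). In this comparison 19.9% of all genes were called higher, 60.4% of all calls, and 50.1% of calls after centring. Ifit3 stood at 5.99 and 6.30 in fetal liver. Mx1 was at 5.24 and 4.92 there, below the 40th percentile of both arrays, so the fold of Mx1 is limited by background. Oas2, at 6.90 and 7.81, overlapped the lines. Rsad2, at 10.55 and 11.85, was above all 3 lines, with a difference of −2.26 ± 0.96 that was not called (adjusted p = 0.102). It was called lower on another of its probe sets when every probe set was tested (−2.06, adjusted p = 0.0493), and with all 25 arrays in 1 model (adjusted p = 0.0195). The call of Oas2 ended when quantile normalization was repeated (adjusted p = 0.0643). These 3 calls ended without either fetal liver array (adjusted p = 0.0694 to 0.235). Ifit3 and Oas2 lost theirs without line 2 (0.0512 and 0.122) or line 3 (0.0537 and 0.119), and Mx1 without line 1 (0.06). Without line 1 the count was 5, Ifit1 (4.58), Ifit3, Oas1a (2.61), Oas2 and Oasl2 (3.48).

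Fetal and adult liver did not differ in any of the 10 genes past the threshold, while 49.3% of all genes did. Of these calls 63.1% were higher in fetal liver, and 52% after the quantile normalization was repeated. At an unadjusted p under 0.05 in limma, 1 of the 10 genes differed. Ifit3 (−1.71 ± 0.76, adjusted p = 0.0893) and Mx1 (−0.97 ± 0.45, adjusted p = 0.102) came closest, both lower in fetal liver. Alternatives gave some calls. Ifit3 was called lower after repeated quantile normalization, after centring and with all 25 arrays in 1 model (adjusted p = 0.0196 to 0.0445). Mx1 was called lower in that model and without adult replicate 2 (0.0162 and 0.0247). Rsad2 was called higher in fetal liver on 1 other probe set (2.19, adjusted p = 0.0371), and Ifit2 in the model of all arrays (1.41, adjusted p = 0.0424). Kupffer cell markers averaged 8.38 and 10.7 on the adult arrays and 8.41 to 9.21 on the fetal arrays, and leukocyte markers 7.65 to 8.67 and 9.05 to 9.26. Their part in the liver signals was not tested.

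**Figure D3:**
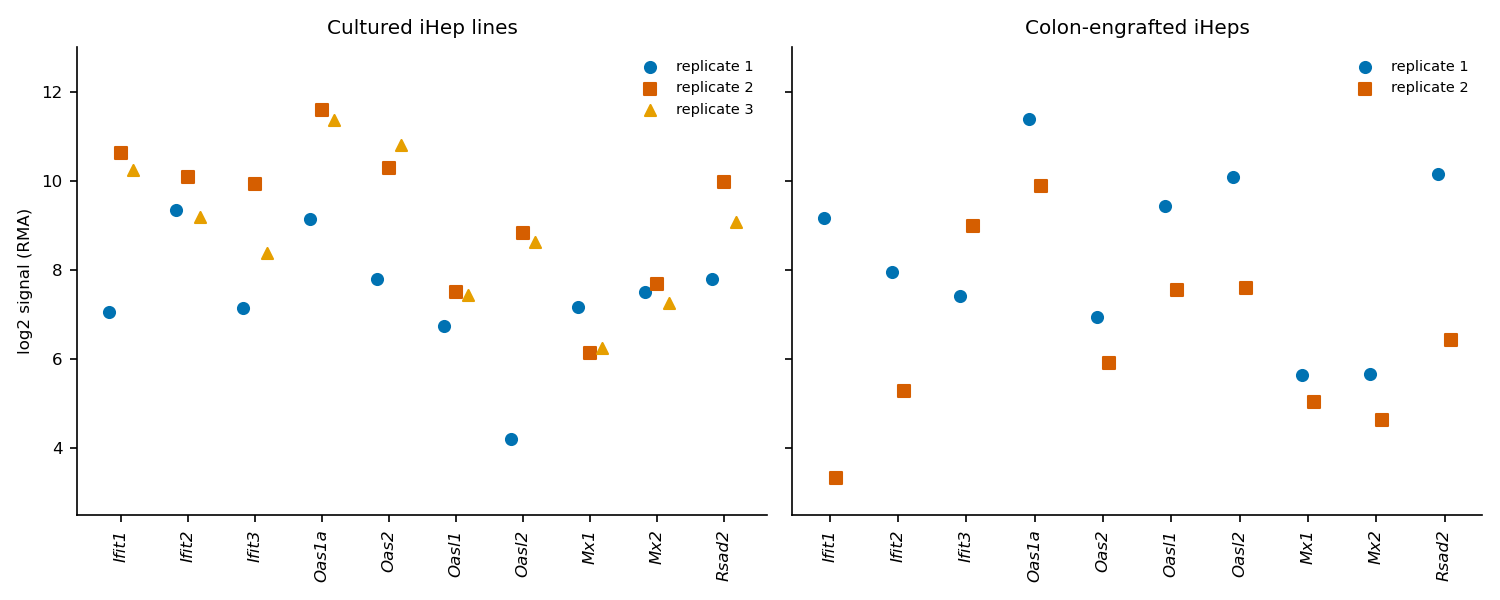
Log2 signal (RMA) of the 10 genes in the 3 cultured iHep lines (left) and the 2 arrays of engrafted iHeps (right); symbols are replicates. In Oasl2 the lines stand at 4.19, 8.84 and 8.63, and in Ifit1 the engrafted arrays stand at 9.16 and 3.32.

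The engrafted iHep arrays were uneven as well. The median distance between their 2 arrays was 1.72 over the effectors and 0.46 over all genes. Ifit1 was at 9.16 in replicate 1 and at 3.32 in replicate 2, Rsad2 at 10.15 and 6.42, and Oasl2 at 10.07 and 7.59. Replicate 2 was the lower in 9 genes, and Ifit3 was the exception, at 7.42 and 8.97. The share of all genes that were lower in replicate 2 was not counted. The other probe sets of Rsad2 were also uneven, at 7.40 and 4.52 on 1 of them. Ptprc, a marker of blood cells, was at 2.94 in replicate 1 and 6.17 in replicate 2, Laptm5 at 6.87 and 10.48, and 6 fibroblast markers averaged 6.56 and 9.76 on the 2 arrays. The array means of all 5 leukocyte markers, Ptprc and Laptm5 included, lay closer together, at 5.11 to 6.66. Those of 6 macrophage markers were 5.10 to 7.82. Replicate 2 thus had the higher signals of Ptprc, Laptm5 and the fibroblast markers and the lower signals of 9 effectors. The part of these markers in the effector values was not tested. Mx1 (5.64 and 5.04) and Mx2 (5.65 and 4.63) were below the 40th percentile of both arrays.

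Engrafted against cultured iHeps, 4 effectors were lower and 1 was higher, in a comparison that called 48% of all genes, 29.7% lower and 18.2% higher. Oas2 fell from 7.80, 10.28 and 10.80 to 6.94 and 5.91, a difference of −3.20 ± 0.75 (adjusted p = 0.0064). Ifit2 fell by 2.93 ± 0.71, Mx2 by 2.34 ± 0.33 (adjusted p = 3.6e-04) and Mx1 by 1.17 ± 0.41. Both MX genes were below the 40th percentile of both engrafted arrays, so the sizes of their differences are limited by background. The Ifit2 difference was −4.27 without engrafted replicate 1 and −1.59 without engrafted replicate 2. Oasl1, at 9.43 and 7.55 against 6.73, 7.50 and 7.43, was higher by 1.27 ± 0.47 (adjusted p = 0.0465). The call of Oasl1 ended without any 1 iHep line or without engrafted replicate 1 (adjusted p = 0.0615 to 0.429), with a difference of 0.33 without that array and 2.21 without engrafted replicate 2. The call of Mx1 ended without line 1 (0.106) or engrafted replicate 2 (0.185) and after centring or repeated normalization (0.0707 and 0.0794). Spike set and group coincide here. Cdx2 itself stood at 11.10 and 11.05 in engrafted iHeps, above the 3 lines.

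Against colon crypts, engrafted iHeps had lower signals of all 10 effectors, with no overlap in any gene (31% of all genes lay lower without overlap). Of the 10, 9 were called, and 9.66% of all genes were called lower. Ifit1 stood at 12.71 and 12.75 in colon, above 9.16 and 3.32 in engrafted iHeps, a difference of −6.49 ± 1.64 (adjusted p = 0.0255) whose lower array was at background. Ifit2 was at 11.77 and 11.80 in colon against 7.95 and 5.27 (−5.18 ± 0.78), and Ifit3 at 11.61 on both colon arrays against 7.42 and 8.97 (−3.41 ± 0.76). The colon arrays agreed closely with each other, by a median of 0.08 over the effectors against 0.19 over all genes. Mx1 differed by −4.62 ± 0.45 (adjusted p = 3.0e-04) and Mx2 by −3.25 ± 0.36, both limited by background in engrafted iHeps, where neither array was above its 40th percentile. Oas2 differed by −4.42 ± 0.82, Rsad2 by −4.11 ± 1.05, Oasl1 by −2.89 ± 0.51 and Oas1a by −2.67 ± 0.76. Oasl2, at 12.91 and 12.88 against 10.07 and 7.59, differed by −4.06 ± 1.35 and was not called (adjusted p = 0.0684). Both groups lay in 1 spike set. Engrafted iHeps were sorted by GFP from DSS-damaged colons and the colon arrays were crypts, so preparation and cell type cannot be told apart here.

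Without colon replicate 1 or colon replicate 2, 4 of these calls were left, Ifit2, Oasl1, Mx1 and Mx2, with Ifit1 at adjusted p = 0.123 and 0.122, Ifit3 at 0.0885 and 0.0881, Oas2 at 0.0563 and 0.0527, Oas1a at 0.169 and 0.156 and Rsad2 at 0.132 and 0.12. Without engrafted replicate 2, whose signals were the lower, Ifit1 (−3.57), Oas1a (−1.92) and Rsad2 (−2.24) were not called. The call of Oas1a also ended when quantile normalization was repeated (adjusted p = 0.0532). Without engrafted replicate 1 the call of Ifit3 ended (adjusted p = 0.051) and Oasl2 was called (−5.31). Leukocyte markers averaged 6.96 to 7.13 in colon and 5.11 to 6.66 in engrafted iHeps, with Laptm5 at 10.35 and 9.82 in colon; their part was not tested.

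Cultured iHeps were also below colon in all 10 genes without overlap (31.6% of all genes), and 8 were called, against 21.3% of all genes called lower, in a comparison across spike sets. Oasl2 differed by −5.68 ± 1.23, Oasl1 by −4.17 ± 0.47 (adjusted p = 7.2e-05), Mx1 and Rsad2 by −3.45 each (SE 0.41 and 0.96), Ifit3 by −3.13 ± 0.69, Oas1a by −2.61 ± 0.69, Ifit2 by −2.24 ± 0.71 and Mx2 by −0.92 ± 0.33. Ifit1 (−3.43 ± 1.497, adjusted p = 0.0789) and Oas2 (−1.22 ± 0.75, adjusted p = 0.196) were not called. The call of Mx2 ended without any 1 of the 5 arrays (adjusted p = 0.0515 to 0.195). That of Ifit2 ended without line 1, line 3 or either colon array (0.0518 to 0.0988), and those of Oas1a (0.0589 and 0.0534) and Rsad2 (0.0679 and 0.06) without either colon array. The differences from colon in cultured and engrafted iHeps share their colon arrays.

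**Figure D4:**
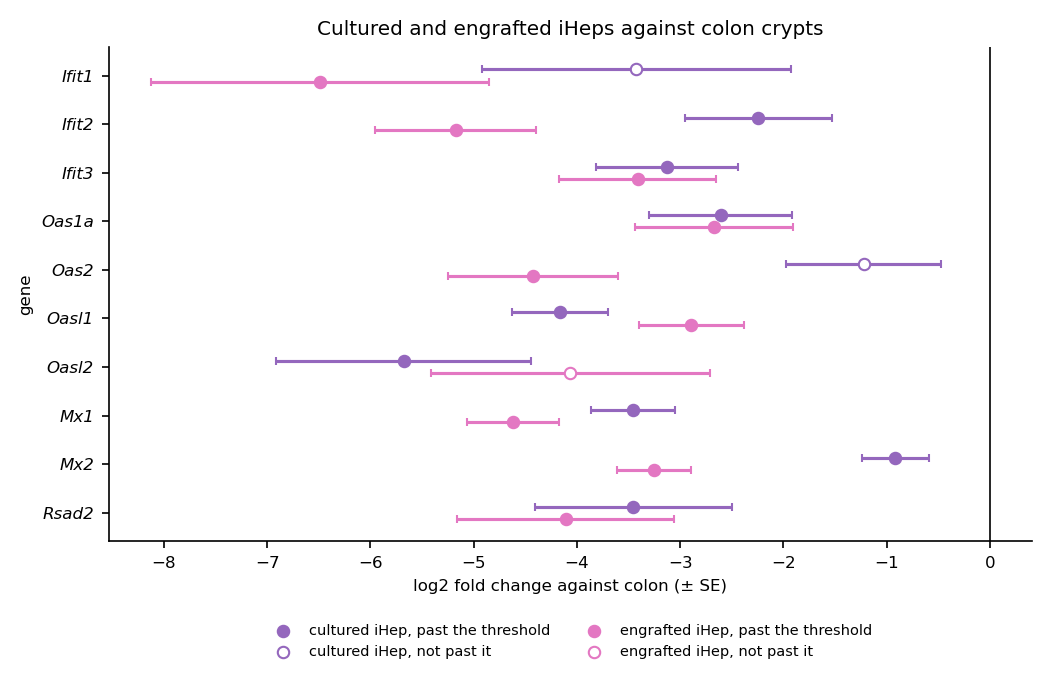
Log2 fold change of each gene in cultured iHeps (3 lines) and engrafted iHeps (2 arrays) against the same 2 colon arrays; bars are limma's SE, and open points did not pass an adjusted p of 0.05. All 20 points lie below 0, with Ifit1 at −6.49 in engrafted iHeps the farthest from it.

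Some regulators of the response were lower than colon in both kinds of iHep. Over all genes, 21.3% were called lower and 32.3% higher in cultured iHeps, and 9.66% and 7.1% in engrafted iHeps. The counts in the short lists below were not tested against these shares. Of 5 JAK-STAT genes, 2 were lower and 1 was higher in cultured iHeps, and 2 were lower and 0 higher in engrafted iHeps. Of 7 interferon regulatory factors, 5 and 2 were lower and 0 higher. Stat2 differed by −3.97 ± 0.63 in cultured and by −3.28 ± 0.69 in engrafted iHeps, Irf9 by −1.21 and −2.56, and Irf7 by −4.38 ± 0.57 and −3.41 ± 0.63. Of 26 other interferon-stimulated genes, 17 were lower and 1 higher in cultured iHeps and 19 were lower and 0 higher in engrafted iHeps (32.3% and 7.1% of all genes were called higher), with medians of −2.24 and −2.97. Trim30a (−6.05), Ifi27l2a (−4.21) and Sp100 (−4.02) were the lowest in engrafted iHeps, and Ifitm1 (−0.04) and Ifitm3 (−0.41) were not called. Of 6 interferon receptor genes, 1 was higher and 1 lower than colon in each kind of iHep. Ifnar2 was higher in cultured (3.17) and engrafted (2.89) iHeps, Ifngr2 was lower in cultured (−1.91) and Ifnlr1 in engrafted (−2.29) iHeps, the last 2 named after their values were seen. Ifnb1 differed from colon by 0.56 and 0.51, not called and at background. Usp18, at −1.86 and −5.01, was not called in either.

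In iHeps with Cdx2 shRNA all 10 effectors were lower than with scramble shRNA without overlap between the groups (6.96% of all genes), and so at each of the 4 replicate numbers. The gap was very small in Ifit2 (lowest scramble array 9.9415, highest Cdx2 array 9.9365), Oasl1 (7.0475 and 7.0325) and Rsad2 (9.4198 and 9.4043). Cdx2, an intestinal transcription factor and the target, was at 9.14, 9.42, 8.96 and 8.98 with scramble shRNA and at 7.78, 8.02, 8.01 and 8.03 with its own, a fall of 1.16 ± 0.12 (adjusted p = 0.0040). In limma 3 effectors passed the threshold, against 1.68% of all 13650 genes called lower. Ifit1 went from 11.09, 11.21, 11.80 and 11.60 to 10.29, 10.45, 9.09 and 9.04, a fall of 1.70 ± 0.34 (adjusted p = 0.041). Mx1, at 6.96, 6.99, 6.52 and 6.66, went to 6.34, 6.04, 5.98 and 6.05, a fall of 0.68 ± 0.13 (adjusted p = 0.0379). Mx2 fell by 0.67 ± 0.13 (adjusted p = 0.0361), from between 7.61 and 7.73 to between 6.75 and 7.34. The median log2 fold change of the 10 genes was −1.03, against −0.00 over all genes.

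The 7 effectors that were not called had differences of up to 1.99 on the log2 scale, and their arrays with Cdx2 shRNA were split. Oasl2 stood at 8.79 and 8.51 in replicates 1 and 2 and at 6.65 and 6.28 in replicates 3 and 4, against 9.42 to 9.67 with scramble shRNA, a difference of −1.99 ± 0.53 (adjusted p = 0.101). Ifit3 stood at 9.74, 9.59, 8.28 and 8.27 against 10.66, 10.18, 10.89 and 10.91 (−1.69 ± 0.36, adjusted p = 0.0515). Oas1a was at 11.40, 11.35, 9.72 and 9.68 against 11.62 to 11.83 (−1.16 ± 0.40, adjusted p = 0.199), and Rsad2 at 9.40, 9.07, 7.58 and 7.98 against 9.42 to 10.16 (−1.43 ± 0.39, adjusted p = 0.111). In these genes replicates 3 and 4 lay more than 1 below replicates 1 and 2. Oasl1 (−0.90), Oas2 (−0.76) and Ifit2 (−0.50) had adjusted p-values of 0.145, 0.194 and 0.232.

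Replicates 1 and 2 were both above 3 and 4 with Cdx2 shRNA in 9 of the 10 genes, Mx1 being the exception, and in 34.79% of all genes tested. With scramble shRNA this held for 3 of the 10 genes and 26.24% of all genes. The difference between Cdx2 and scramble shRNA was uneven over same-numbered arrays. For numbers 1 to 4 it was −0.79, −0.76, −2.71 and −2.56 in Ifit1, −0.88, −0.95, −2.995 and −3.14 in Oasl2, and −0.21, −0.13, −1.37 and −1.34 in Oas2. In Mx1 it was more even, at −0.62, −0.95, −0.54 and −0.61. Cdx2 itself differed by −1.35, −1.40, −0.95 and −0.95, with the smaller falls at numbers 3 and 4. Hepatocyte markers averaged 8.76 to 10.9 with Cdx2 and 10.2 to 10.6 with scramble shRNA, and leukocyte markers 4.68 to 4.89 and 4.75 to 5.08, with Ptprc at 2.92 to 3.76 over the 8 arrays.

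**Figure D5:**
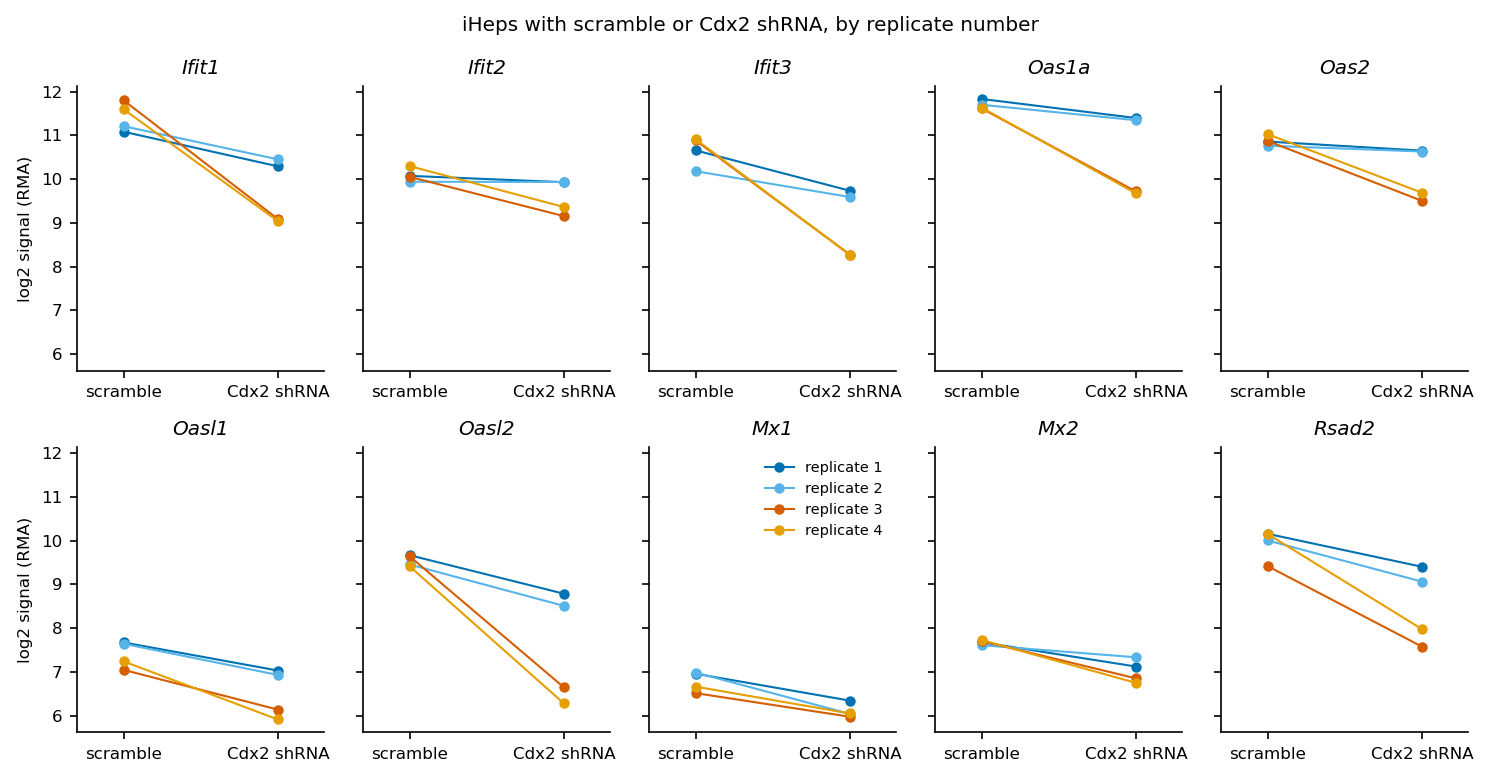
Log2 signal (RMA) of the 10 genes in iHeps with scramble and Cdx2 shRNA. Lines join arrays with the same replicate number, 1 to 4, which the labels do not call pairs. Every line falls, and in 9 genes, all but Mx1, replicates 3 and 4 end below replicates 1 and 2.

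Same-numbered arrays deviated together in this experiment, but so did unequal numbers within 1 and 2 or within 3 and 4. The data thus do not settle a pairing by number. With the replicate number as a block in limma 4 effectors were called, among 3.79% of all genes called lower. They were Mx1 (adjusted p = 0.0193), Oasl1 (0.0224), Rsad2 (0.0369) and Mx2 (0.0424). Ifit1 was then at 0.0611. With the split between numbers 1 and 2 and numbers 3 and 4 as a term, chosen after seeing the data, 8 were called, all but Ifit2 (0.109) and Oas2 (0.0655), among 5.26% of all genes. Of the 3 calls without a block, none was left without scramble replicate 1, 2 or 4 or without Cdx2 replicate 3 or 4, and 1, Mx1, without scramble replicate 3. Without Cdx2 replicate 1 the count was 5, Ifit1, Ifit3, Oasl2, Mx1 and Rsad2, and without Cdx2 replicate 2 it was 2, Ifit1 and Mx2. The direction could not change when an array was left out, since no gene's arrays overlapped between the groups. The block and the split term left the differences themselves unchanged.

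Around the effectors, 0 of 3 interferon genes, 0 of 6 receptor genes, 0 of 5 JAK-STAT genes and 0 of 6 interferon regulatory factors were called with Cdx2 shRNA. Over all genes, 1.68% were called lower and 0.535% higher, so counts of 0 in lists this short say little about these genes. Irf7 stood at 7.64 against 9.13 on average, a difference of −1.49 ± 0.37 (adjusted p = 0.0791), and Stat2 at −0.52 ± 0.25 (adjusted p = 0.377). Usp18 fell by 2.01 ± 0.38 (adjusted p = 0.0354) and Ifit1bl1 by 1.10 ± 0.23 (adjusted p = 0.0451). Of 11 sensors and adaptors, Zbp1 (−1.28), Tlr3 (−0.97) and Ddx58 (−0.55) fell. Of 26 other interferon-stimulated genes, 4 fell and 0 rose, with a median of −0.90: Ifi27l2a (−2.46), Lgals3bp (−0.87), Ube2l6 (−0.73) and Ifi35 (−0.59), the last named after its values were seen. Cmpk2 (−2.11) and Herc6 (−1.56) were not called.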

How the data were processed

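The 25 Affymetrix mouse arrays were analysed from the log2 values that the authors deposited, made with RMA per the submitters' processing notes; its version and parameters are not given in the sources used here. Column medians were 6.11 to 6.30. Of 45101 probe sets, 34945 had 1 gene symbol in the platform annotation, 932 had several and 9160 were not listed. The probe set with the highest mean over the 25 arrays stood for its gene, and genes below the 40th percentile of all but 1 array, or of all arrays, of a model were not tested; all 10 genes passed in all models. Groups were compared with limma 3.58.1 in R 4.3.3 in 3 models (induced macrophages; iHep, liver, engrafted iHep and colon; iHep with scramble or Cdx2 shRNA), two-sided, with Benjamini-Hochberg adjustment over all genes of a comparison and a threshold of 0.05. "Called" means past that threshold. The scripts were tested on simulated data. RMA sets all arrays to 1 distribution, so a shift of most genes would be hidden.

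The members and gene lists were chosen with earlier results of these data known. Named genes were the members, the shRNA targets, up to 3 called and 2 other genes per pathway list, interferon, IRF, STAT and JAK genes, and the 6 genes most like the members. Alternatives were every probe set, no filter, other scalings, a robust trend, a model of all arrays, a replicate block and leaving out each array. Same-numbered arrays with scramble and Cdx2 shRNA deviated together (r = 0.53, 0.32, 0.58 and 0.44 for numbers 1 to 4). Unequal numbers within 1 and 2, or within 3 and 4, did so as well (r = 0.17 to 0.41), and numbers across this split deviated apart (r = −0.54 to −0.14). The replicate block took the pairing from the data, not the labels, and the data do not tell pairs by number apart from this split. No such pattern was seen in the other models. Figures used matplotlib 3.10.9.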

Additional observations from a re-analysis of the deposited data

How the results depend on the processing

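With all 25 arrays in 1 model, the count went from 10 to 1 for Ebf1 against scramble shRNA, from 7 to 2 for Pou2af1 against scramble, from 10 to 4 for Ebf1 against Pou2af1, from 3 to 8 for iHep against fetal liver (7 higher and 1, Rsad2, lower), from 0 to 3 for fetal against adult liver and from 3 to 0 for Cdx2 against scramble; the cause was not tested. Fetal against adult liver gave 1 call with every probe set, with repeated quantile normalization, with centring and with the replicate block. Leaving out 1 array at a time gave 7 to 9 calls for Ebf1, 5 for Pou2af1, 10 for Ebf1 against Pou2af1, 1 to 4 for iHep against adult liver, 0 to 5 against fetal liver, 4 to 7 against colon, 4 to 6 for engrafted against cultured iHeps, 4 to 9 against colon, 0 to 1 for fetal against adult liver and 0 to 5 for Cdx2. With the replicate block the count of engrafted iHeps against colon went from 9 to 6 (Ifit1, Oas1a and Rsad2 lost). The Cdx2 count was 4 with that block, and with numbers 1 and 2 against 3 and 4 as a term, chosen after seeing the data, it was 8. Of 1390 single-gene alternatives, 1235 stayed on the same side of the threshold, 15 of them uncalled values that changed sign, 115 lost a call and 40 gained one, and no called gene changed sign. Where groups did not overlap, leaving out an array could not change the sign. Apart from the block and the split term for Cdx2, these counts are given without the share of all genes called under the same setting. A change in a count can thus not be told from a change in calls over all genes. With 2 arrays in most groups, signals near background and the number of arrays limit the precision.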
